A study of Mus musculus with 8 samples.

Results

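The 10 genes described here encode the classical MHC class I molecule and the machinery that supplies it with peptides. They were chosen by name and role, with earlier results of these data known, so counts of called genes among them are a description. They are the heavy chain genes H2-K1 and H2-D1, the light chain gene B2m, the peptide transporter genes Tap1 and Tap2, the loading factor gene Tapbp, the immunoproteasome genes Psmb8, Psmb9 and Psmb10, and the transactivator gene Nlrc5. All 10 were among the 12412 genes tested, out of 56884 genes counted. Poly(A) RNA from the liver of female C57BL/6J mice aged 18 months was sequenced, with 1 library per mouse. The DIO group (diet-induced obesity, 3 mice, replicates 1, 4 and 5) was kept from the age of 2 months to the end on a high-fat diet in which lipids gave 45% of the energy. The DIO + DHA group (5 mice, replicates 1, 2, 4, 5 and 6) ate the same diet for 4 months and then a version in which a fish oil concentrate rich in docosahexaenoic acid (683.4 mg DHA and 46.7 mg EPA per g) replaced 15% by weight of the lipids. Both groups were obese, and no lean or young group was analysed here. Mice were housed in shared cages, and which mice shared a cage was not given, so a cage effect and a diet effect cannot be told apart.

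Class I molecules are carried by nearly all nucleated cells and present peptides of the cell's own proteins to CD8 T cells. The proteasome cuts the proteins, TAP1 and TAP2 carry the peptides into the endoplasmic reticulum, tapasin (Tapbp) holds the empty molecule to the transporter, and the heavy chain reaches the cell surface bound to beta-2-microglobulin (B2m). Interferon gamma raises these genes and makes cells build the immunoproteasome, in which PSMB8, PSMB9 and PSMB10 take the places of the constitutive catalytic subunits PSMB5, PSMB6 and PSMB7. NLRC5 is brought to class I promoters by factors bound to the X and Y boxes and switches them on. In liver, Kupffer cells, sinusoidal endothelium and lymphocytes carry much class I, and hepatocytes carry less at rest.

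The promoters of the class I chains are shown because they hold the letters of the elements through which this control is known to work. In the RefSeq promoter table, 8 of the 10 genes had a sequence of 300 bases, from 250 before to 50 after the start. Tap2 and Nlrc5 had none. The sequences are from RefSeq (build GRCm38.p6), and their positions were found by exact match in GRCm39. The first line below gives the 250 bases before the start of H2-K1 (chr17:34219322-34219571, minus strand), and the others give stretches of 30 bases. Capitals mark the palindromic NF-kappaB site of class I promoters (the first run of capitals in the H2-K1 line), AGTGAAA (an interferon regulatory factor, IRF, core, which reads TTTCACT where it lies on the opposite strand), GAAA and TGAAA with any 1 base between them (the core of an interferon-stimulated response element) and the pair TGACG and ATTGG spaced by 20 bases (X2, part of the X box, and the Y box). All were searched on both strands, and in these genes none of the marked matches overlap.
H2-K1: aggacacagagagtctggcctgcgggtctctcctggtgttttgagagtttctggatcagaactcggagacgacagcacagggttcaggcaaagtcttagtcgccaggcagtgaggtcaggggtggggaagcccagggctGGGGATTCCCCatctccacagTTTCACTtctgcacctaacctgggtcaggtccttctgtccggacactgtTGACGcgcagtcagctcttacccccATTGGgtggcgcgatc
H2-D1 NF-kappaB stretch: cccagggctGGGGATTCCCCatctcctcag
H2-D1 IRF stretch: catctcctcagTTTCACTtctgcacctaac
H2-D1 X2 and Y pair: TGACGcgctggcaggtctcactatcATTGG
B2m response element stretch: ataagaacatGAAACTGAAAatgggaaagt
B2m X2 and Y pair: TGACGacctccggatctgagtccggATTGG
Psmb8 IRF stretch: tctctagctggTTTCACTgatgtggcagca

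The H2-D1 stretches lie on the plus strand at chr17:35481890-35481919, chr17:35481909-35481938 and chr17:35481969-35481998. Those of B2m lie on the plus strand at chr2:121978019-121978048 and chr2:121978090-121978119, and that of Psmb8 on the plus strand at chr17:34417175-34417204. In GENCODE M39 the first exons of H2-D1, B2m and Psmb8 begin upstream of the RefSeq start, so there these stretches lie in annotated 5′ UTR. In the release used for counting, M33, B2m begins later and both of its stretches lie before the gene. The H2-K1 window lies upstream of that gene and partly in a non-coding RNA gene of the other strand. Over the 240 bases in which the windows of H2-K1 and H2-D1 could be laid side by side without gaps, 176 (73.3%) were identical.

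The 3 class I chain genes shared the spaced pair, which began 41 bases before the start in H2-K1, 101 in H2-D1 and 78 in B2m. Among all 32544 distinct promoters in the table, 31 (0.0953%) held that pair. The NF-kappaB letters stood in H2-K1 (111 bases before the start), in H2-D1 (171 bases before) and in 0.0307% of all promoters. The IRF core stood 90 bases before the start in H2-K1, 150 before it in H2-D1 and 18 after it in Psmb8, and in 4.34% of all promoters. The interferon response element letters stood 139 bases before the start in B2m and in 0.796% of all promoters. Tap1, Tapbp, Psmb9 and Psmb10 had none of these 4 in the window searched, which says only that these letters were not there. The pair was found in 27 genes, of which 17 were tested. Apart from H2-K1, H2-D1 and B2m, 14 were tested, with 1 lower and 1 higher in the DIO + DHA group. These shares are near those of all genes tested (7.28% lower and 7.89% higher).

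The libraries held 1723800 to 5690347 counts, and DIO replicate 1 was the shallowest. Levels are in CPM, which here are counts divided by the TMM-scaled size of the library. Because the counts come mostly from the 3′ ends of transcripts and were not divided by length, a CPM is compared between libraries and not between genes. Differences are given as the log2 fold change, DIO + DHA over DIO, and a gene is called lower or higher where the edgeR quasi-likelihood test gave a Benjamini-Hochberg adjusted p under 0.05 over all 12412 genes. Hepatocyte markers fitted the label liver, with a summed level of 86073 to 92270 CPM in the DIO group and 87673 to 101531 CPM in the DIO + DHA group. The DIO + DHA libraries also held more RNA of genes typical of other tissues than the DIO libraries did. Des, on the skeletal muscle list, is also a stellate cell marker. The 15 skeletal muscle genes summed to 36.0 to 40.5 CPM in the DIO group and 1348 to 1427 CPM in the DIO + DHA group, and the 11 genes of stratified squamous epithelium to 0.563 to 0.902 CPM and 73.7 to 84.1 CPM. Of the latter, 8 were listed at 0 in every DIO library. The part of this RNA in the results below was not tested, beyond the fit in which the genes of both lists were left out of the TMM scaling.

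Of the 10 genes, 9 were lower in the DIO + DHA group and 0 were higher, where 7.28% of all genes tested were lower and 7.89% higher. The exception, Tap2, missed the threshold. The median log2 fold change of the 10 genes was -0.48, against 0.00 over all genes tested. For 6 genes (H2-D1, Tapbp, Psmb8, Psmb9, Psmb10 and Nlrc5) the highest DIO + DHA library was below the lowest DIO library, and 8.88% of all genes tested did so. No gene of the 10 had all DIO + DHA libraries above all DIO libraries, which 9.54% of all genes tested had. The highest of the 8 libraries was a DIO library for each of the 10 genes, spread over replicates 1, 4 and 5 (3, 3 and 4 genes). The study's methods call a gene by limma-voom where the log-odds B is above 0. By that rule 5 of the 10 were lower (H2-D1, Psmb8, Psmb9, Psmb10 and Nlrc5) and 0 higher, against 3.2% and 3.73% of all genes. Without DIO replicate 4, the edgeR test called 6 of the 10 lower.

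**Figure D1:**
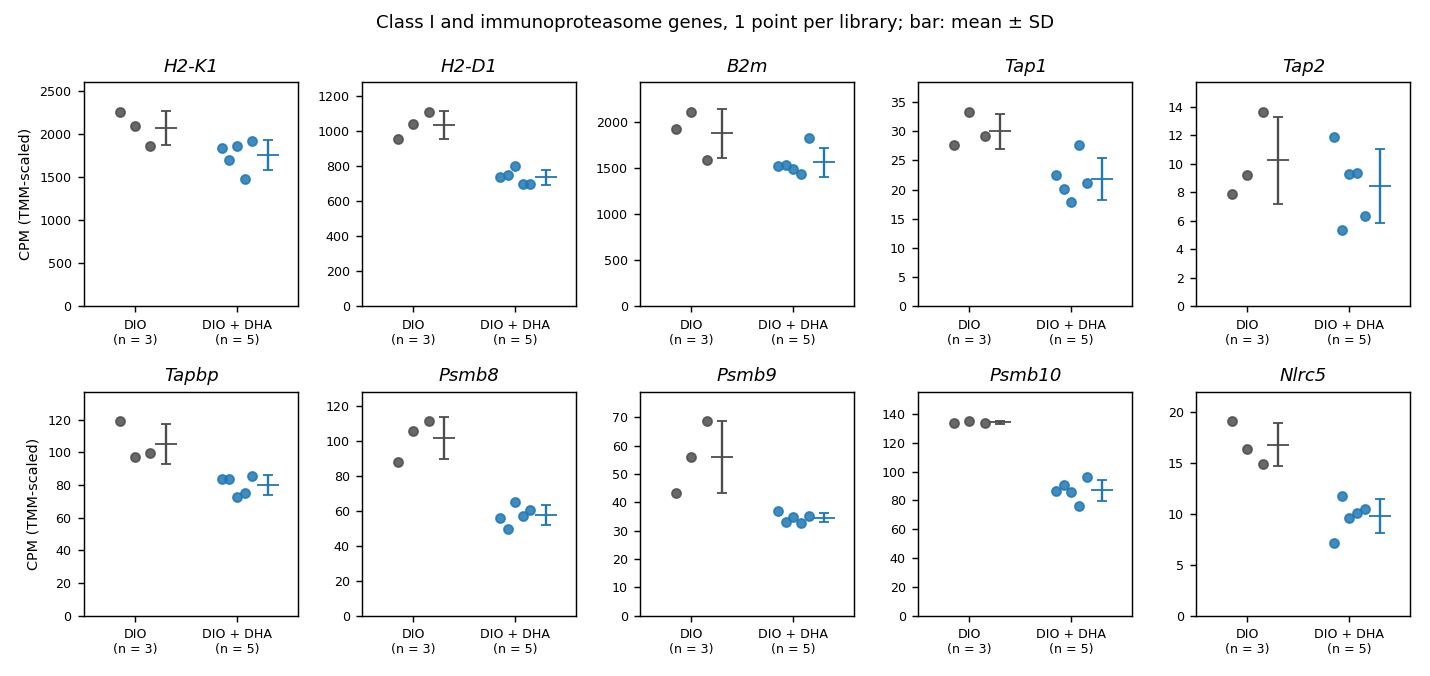
CPM of the 10 genes in each library (vertical axes from 0, 1 panel per gene), with 1 point per mouse and the mean ± SD beside the points of each group. The groups do not overlap for H2-D1, Tapbp, Psmb8, Psmb9, Psmb10 and Nlrc5, and they overlap for H2-K1, B2m, Tap1 and Tap2.

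All 3 immunoproteasome subunits were lower, without overlap of the groups. Psmb8 (chromosome 17, 34416695 to 34420428, plus strand, GRCm39 as in all positions here) encodes the subunit that replaces PSMB5 and cuts after hydrophobic residues. Its level was 88.3, 106 and 112 CPM in DIO replicates 1, 4 and 5, and 55.7, 49.9, 65.3, 57.1 and 60.7 CPM in DIO + DHA replicates 1, 2, 4, 5 and 6. The lowest DIO library thus stood above the highest DIO + DHA library. The mean of the 3 DIO mice was 102 CPM (SD = 12.1, n = 3). That of the 5 mice given DHA was 57.8 CPM (SD = 5.72, n = 5), and the fitted level was 44.3% lower. The log2 fold change was -0.84 with a standard error of 0.09 (edgeR adjusted p = 7.2e-11).

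Psmb9 (chromosome 17, 34400961 to 34406738, minus strand) encodes the subunit that replaces PSMB6. Its level was 43.3, 56.1 and 68.7 CPM in the DIO libraries and 36.9, 33.2, 35.0, 32.8 and 35.2 CPM in the DIO + DHA libraries. The DIO mice were spread widely, with replicate 1 nearest to the other group, whereas the DIO + DHA mice lay close together (SD of 12.7 CPM, n = 3, against 1.66 CPM, n = 5). The log2 fold change was -0.74 with a standard error of 0.11 (edgeR adjusted p = 3.3e-07).

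Psmb10 (chromosome 8, 106662367 to 106665076, minus strand) lies outside the MHC and encodes the subunit that replaces PSMB7 and cuts after basic residues. Its level was 133, 135 and 134 CPM in the DIO libraries, the tightest of the 10 genes, and 86.5, 90.8, 86.0, 75.9 and 95.9 CPM in the DIO + DHA libraries. The log2 fold change was -0.62 with a standard error of 0.08 (edgeR adjusted p = 2.0e-08). All 3 calls were kept in each of the 18 alternative fits, with log2 fold changes between -0.91 and -0.77 for Psmb8, -0.84 and -0.56 for Psmb9, and -0.70 and -0.58 for Psmb10. The genes closest to Psmb10 in their centred log2 CPM across the 8 libraries, among the 6215 genes whose mean level reached 10 CPM, were 9030619P08Rik, Orm1 and Gsta3, at root mean square distances of 0.0371, 0.0470 and 0.0607.

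The edgeR test with all libraries called none of the 3 constitutive subunits. Psmb5 was at 28.1, 30.3 and 28.2 CPM in the DIO libraries and 33.5, 29.8, 37.5, 30.2 and 31.0 CPM in the DIO + DHA libraries (log2 fold change 0.15, 95% interval -0.08 to 0.39, edgeR adjusted p = 0.467). Psmb6 was at 272, 312 and 356 CPM and at 342, 340, 389, 341 and 370 CPM (log2 fold change 0.17, edgeR adjusted p = 0.113), and without DIO replicate 5 it was called higher (0.29, adjusted p = 0.00933). Psmb7 had only 4 to 29 counts per library. Its log2 fold change of 1.12 (edgeR adjusted p = 0.135) became 2.15 without DIO replicate 4 (adjusted p = 0.00306) and 1.32 without DIO + DHA replicate 6 (adjusted p = 0.0109). It was also called higher with no filter on low counts (adjusted p = 0.00767), with the replicate number as a block (0.0321) and by limma-voom at an adjusted p under 0.05 (1.39, adjusted p = 0.0317). In Psmb7, 59.9% of the 80-base windows in the last 500 bases of its transcript also occurred in transcripts of Nek6, so its value is uncertain.

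None of the standard subunits was lower. Of 32 tested (the constitutive subunits above, the other subunits of the 20S core and the 19S cap that unfolds substrates), 30 had a positive log2 fold change, 10 were higher and 0 lower, with a median of 0.19. In the core, Psmb4 (0.31, adjusted p = 0.00166), Psmb3 (0.27, adjusted p = 0.00364) and Psmb1 (0.22, adjusted p = 0.0233) were higher. In the cap, 7 of 18 genes were higher, among them the ubiquitin receptor gene Psmd4 (0.40, adjusted p = 2.0e-05), the scaffold gene Psmd1 (0.36, adjusted p = 0.000909) and the ATPase genes Psmc6 (0.41, adjusted p = 0.00129) and Psmc1 (0.28, adjusted p = 0.00904). Of 8 assembly factors, 1 was higher, the maturation protein gene Pomp (0.21, adjusted p = 0.0211). The interferon-inducible activator gene Psme2 was lower (-0.32, adjusted p = 0.00373), and its partner Psme1 had a log2 fold change of -0.21 (adjusted p = 0.0749), while the other 3 genes of the activator and inhibitor list were not called. By the log-odds rule, Psmd4 kept its call and the other genes named in this group did not. In fits with 1 library left out, the call of Psmb1 was lost without DIO replicate 1 or 5 or DIO + DHA replicate 4 or 6 (adjusted p = 0.0576 to 0.0873), that of Pomp without DIO replicate 1 or 4 or DIO + DHA replicate 4 (0.0515 to 0.0853), that of Psmc1 without DIO replicate 4 or DIO + DHA replicate 5 (0.0537 and 0.0506), and those of Psmc6 and Psme2 without DIO replicate 5 (0.0591 and 0.0644).

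**Figure D2:**
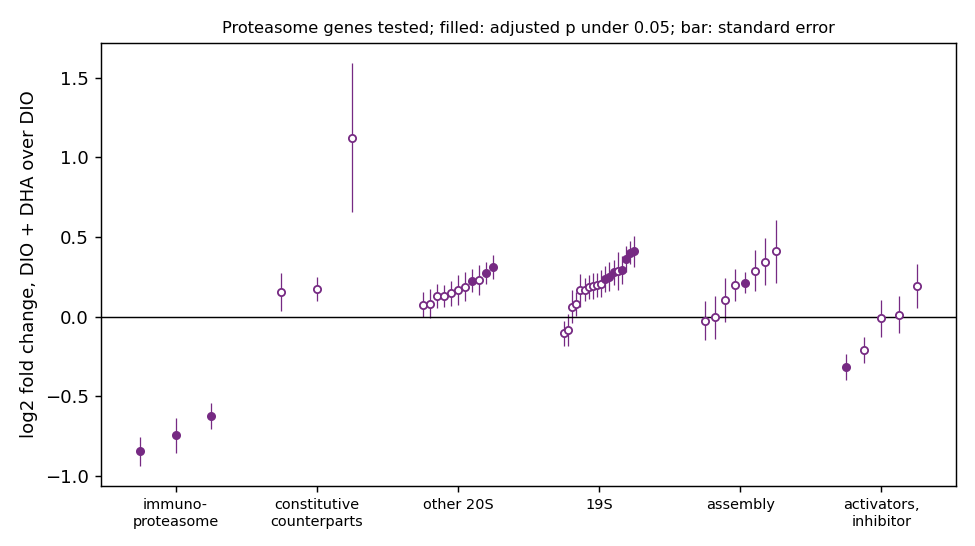
Log2 fold change, DIO + DHA over DIO, of each proteasome gene tested (vertical axis), grouped by complex along the horizontal axis, with standard errors as bars and filled points for an adjusted p under 0.05. The 3 immunoproteasome subunits lie between -0.84 and -0.62, and 30 of the 32 standard 20S and 19S subunits lie above 0.

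The RNA level of each immunoproteasome subunit was set against that of the one it replaces, as a ratio within a library so that library scaling drops out. These are RNA ratios in bulk tissue. The exchange of subunits in the proteasome was not measured, and the part of the cell mix in the ratios was not tested. Psmb8 over Psmb5 was 3.14, 3.49 and 3.96 in the DIO libraries and 1.66, 1.67, 1.74, 1.89 and 1.96 in the DIO + DHA libraries. The groups stood apart, with a mean difference of -0.98 on the log2 scale (exact two-sided permutation test, p = 0.0179, the smallest that the 56 splits allow; 0.0268 after adjustment over 3 ratios). Psmb9 over Psmb6 was 0.159, 0.180 and 0.193 against 0.108, 0.0975, 0.0898, 0.0961 and 0.0952, a difference of -0.86 with the same exact p and adjusted p. Psmb10 over Psmb7 was 47.4, 31.2 and 189 against 15.0, 9.34, 18.5, 12.5 and 36.6. Those groups overlapped, the difference of -1.99 had an exact permutation p of 0.0357 (adjusted 0.0357), and it rests on the few counts of Psmb7. Without DIO replicate 1 or 5 none of the 3 kept an adjusted p under 0.05, where the smallest exact p that 7 libraries allow is 0.0476. At that limit any ratio can pass only if all 3 reach the smallest p. In these fits the groups still stood apart for Psmb8 over Psmb5 and Psmb9 over Psmb6.

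**Figure D3:**
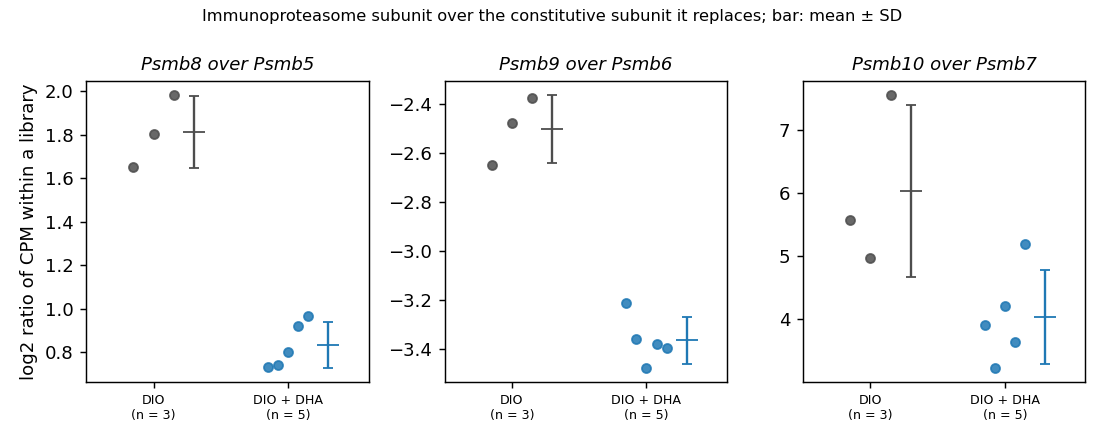
Log2 ratio of CPM of each immunoproteasome subunit to the constitutive subunit it replaces (vertical axes), 1 point per library, with the mean ± SD of each group beside the points. The DIO libraries lie above all DIO + DHA libraries for Psmb8 over Psmb5 and Psmb9 over Psmb6, and the groups overlap for Psmb10 over Psmb7.

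Both heavy chains were lower, H2-D1 more clearly than H2-K1. H2-D1 (chromosome 17, 35481706 to 35486475, plus strand) was at 956, 1040 and 1112 CPM in the DIO libraries and at 740, 752, 800, 700 and 697 CPM in the DIO + DHA libraries. No library of one group reached the range of the other. The mean of the 3 DIO mice was 1036 CPM (SD = 78.1, n = 3) and that of the 5 mice given DHA was 738 CPM (SD = 42.4, n = 5). Its log2 fold change was -0.49 with a standard error of 0.06 (edgeR adjusted p = 1.9e-08), and in all 18 alternative fits it was called, at -0.54 to -0.43.

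H2-K1 (chromosome 17, 34214991 to 34219321, minus strand) was at 2261, 2094 and 1859 CPM in the DIO libraries and at 1839, 1701, 1860, 1482 and 1915 CPM in the DIO + DHA libraries. DIO replicate 5 lay below 2 of the DIO + DHA mice. The log2 fold change was -0.23 with a standard error of 0.07 (edgeR adjusted p = 0.0169), and the call was lost without DIO replicate 1 (adjusted p = 0.164), without DIO replicate 4 (0.0847), without DIO + DHA replicate 5 (0.0577) and by DESeq2 (0.0635). In DIO replicate 5, H2-D1 was at its highest of the group and H2-K1 at its lowest. The ratio of H2-D1 to H2-K1 within a library, a measure added after the values had been seen, was 0.423, 0.497 and 0.598 in the DIO libraries and 0.402, 0.442, 0.430, 0.472 and 0.364 in the DIO + DHA libraries. The difference of -0.25 on the log2 scale did not pass an exact permutation test (p = 0.125), so a larger fall of H2-D1 than of H2-K1 was not shown. In whole transcripts, 18.4% of the 80-base windows of H2-K1 and 31.1% of those of H2-D1 also occurred in transcripts of other genes, but 0% did so in the last 500 bases, where most reads of this protocol fall. The genes closest to H2-K1 in their centred profile, Apon, Tars2 and Ylpm1, lay at distances of 0.0678, 0.0682 and 0.0684.

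B2m (chromosome 2, 121978167 to 121983564, plus strand), the light chain shared by all class I molecules, was at 1918, 2109 and 1589 CPM in the DIO libraries and at 1520, 1536, 1483, 1431 and 1820 CPM in the DIO + DHA libraries. DIO + DHA replicate 6 lay above DIO replicate 5, so the groups overlapped, and the other 4 mice of the DIO + DHA group lay below all DIO mice. The log2 fold change was -0.26 with a standard error of 0.08 (edgeR adjusted p = 0.0241). The call was lost without DIO replicate 4 (-0.16, adjusted p = 0.233), without DIO replicate 1 (adjusted p = 0.0895) and without DIO + DHA replicate 2 (adjusted p = 0.0550).

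Of 14 other class I heavy chains and class I-like genes tested, 1 was lower, a share near that of all genes, and 0 were higher. Their median log2 fold change was -0.17, and 10 of 14 values were negative. In 3 (H2-T22, H2-Q1 and Azgp1) all DIO + DHA libraries lay below all DIO libraries, and 8.88% of all genes tested did so. The lower gene was H2-T22, a non-classical chain, at 38.5 to 43.9 CPM in the DIO group and 24.8 to 34.7 CPM in the DIO + DHA group (log2 fold change -0.48, adjusted p = 0.00191), a value made uncertain by its close paralogs. H2-Q10, a secreted class I molecule made by hepatocytes, was at 2606 to 2870 CPM and at 2622 to 2955 CPM, and its log2 fold change of 0.03 had a 95% interval of -0.09 to 0.15 (adjusted p = 0.831). That interval and the one of H2-D1, -0.62 to -0.37, do not meet, and the difference between the genes was not tested. Azgp1, a class I-like protein secreted by hepatocytes, had a log2 fold change of -0.12 (adjusted p = 0.196), and H2-Q1 one of -0.55 (adjusted p = 0.108).

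The peptide transport and loading genes were lower except Tap2. Tapbp (chromosome 17, 34134873 to 34148266, plus strand) was at 119, 97.0 and 99.5 CPM in the DIO libraries and at 83.7, 83.8, 72.4, 74.9 and 85.4 CPM in the DIO + DHA libraries, without overlap (log2 fold change -0.37, standard error 0.09, edgeR adjusted p = 0.00154). Of its exon bases, 33.1% are shared with Zbtb22 or Gm19412, and 19.5% of the windows in its last 500 bases occur in transcripts of other genes, and reads from such stretches were left out or not unique. Tap1 (chromosome 17, 34406527 to 34416199, plus strand) was at 27.6, 33.4 and 29.1 CPM and at 22.4, 20.1, 17.8, 27.6 and 21.2 CPM. In Tap1, DIO + DHA replicate 5 stood just above the lowest DIO mouse and the other 4 lay below (log2 fold change -0.46, standard error 0.13, edgeR adjusted p = 0.0097). Its call was lost without DIO replicate 4 (adjusted p = 0.148).

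Tap2 (chromosome 17, 34422501 to 34435295, plus strand), the partner of TAP1 in the transporter, was at 7.88, 9.20 and 13.7 CPM in the DIO libraries and at 11.9, 5.36, 9.28, 9.37 and 6.33 CPM in the DIO + DHA libraries. The groups overlapped over most of their range. Its log2 fold change of -0.32 had a 95% interval of -0.74 to 0.10 (edgeR adjusted p = 0.370), which includes the value of Tap1, so at 14 to 77 counts per library neither a fall like that of Tap1 nor no change could be told apart. Among 16 other processing and loading factors, the peptide trimming gene Erap1 was lower (-0.41, adjusted p = 0.0480), although the call was lost without any 1 of the 3 DIO libraries or of DIO + DHA replicates 2, 4 and 6 (adjusted p = 0.0531 to 0.191). The chaperone gene Hspa5 (0.43, adjusted p = 2.0e-05) and the aminopeptidase gene Lap3 (0.30, adjusted p = 0.00386) were higher. The class I chaperone gene Calr had a value of 0.16 (adjusted p = 0.152).

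Psmb9, Tap1, Psmb8 and Tap2 stand in a row within 34335 bases of the MHC. The annotated starts of Psmb9 and Tap1, which are read in opposite directions, overlap by 212 bases, Psmb8 begins 495 bases after the end of Tap1, and Tap2 begins 2072 bases after Psmb8. The shared stretch holds 5.79% of the exon bases of Psmb9 and 3.87% of those of Tap1, and reads within it were assigned to neither. Their log2 fold changes along the row were -0.74, -0.46, -0.84 and -0.32.

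**Figure D4:**
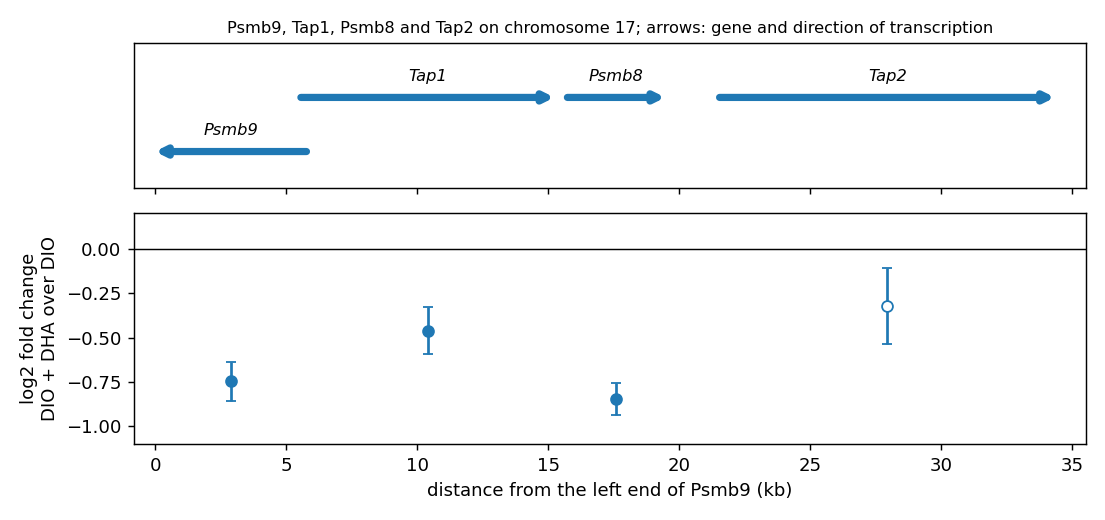
Upper panel, position and direction of transcription of Psmb9, Tap1, Psmb8 and Tap2 (horizontal axis, distance in kb from the left end of Psmb9). Lower panel, their log2 fold changes, DIO + DHA over DIO, with standard errors and filled points for an adjusted p under 0.05, at the middle of each gene: Psmb9, Tap1 and Psmb8 were called lower and Tap2 was not.

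Nlrc5 (chromosome 8, 95160984 to 95253900, plus strand), the transactivator of class I genes, was at 19.1, 16.4 and 14.9 CPM in the DIO libraries and at 7.14, 11.7, 9.63, 10.1 and 10.5 CPM in the DIO + DHA libraries. All DIO + DHA mice lay below all DIO mice. The log2 fold change was -0.75 with a standard error of 0.18 (edgeR adjusted p = 0.00112), from 27 to 91 counts per library, and it was called in all 18 alternative fits with values between -0.87 and -0.64. Ciita, its counterpart for class II genes, had a log2 fold change of -1.21 at 0 to 3.02 CPM (adjusted p = 0.0793), and it was called without DIO replicate 1 (-1.47, adjusted p = 0.0217) or DIO + DHA replicate 6 (-1.56, adjusted p = 0.0330). Ciita passed the count filter only through the DIO libraries and had 2 to 8 counts in the DIO + DHA libraries. It could thus hardly come out higher, and its calls in these fits are only a description. Of 11 tested factors known to bind class I promoters, 1 was lower, a share near that of all genes tested. It was Irf1, an interferon-induced activator (-0.41, adjusted p = 0.0187), whose call was lost without DIO replicate 4 (adjusted p = 0.140) or 5 (adjusted p = 0.0691).

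**Figure D5:**
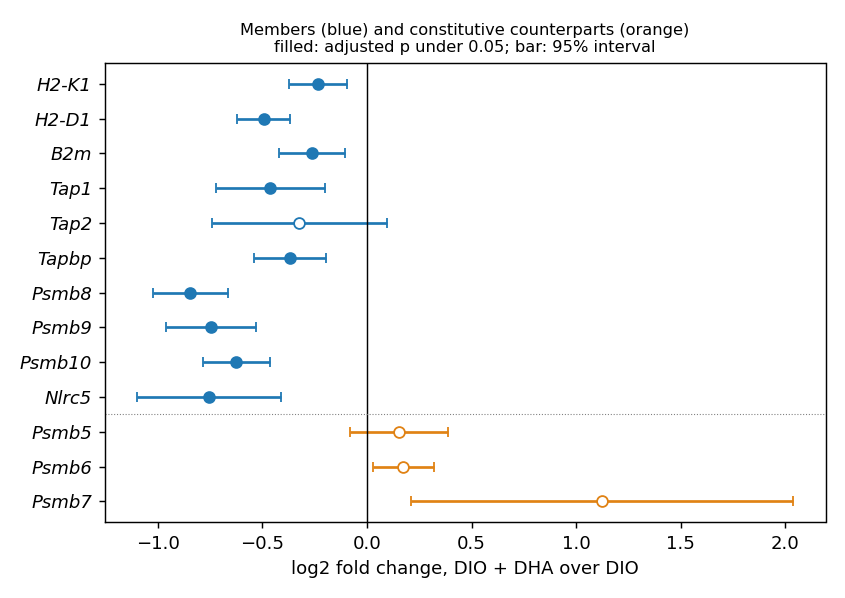
Log2 fold change, DIO + DHA over DIO (horizontal axis), of the 10 genes (blue) and the constitutive counterparts Psmb5, Psmb6 and Psmb7 (orange), with 95% intervals as bars and filled points for an adjusted p under 0.05. All 10 blue points lie below 0, and the interval of Tap2 crosses 0. All 3 orange points lie above 0 and none is filled.

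In the interferon gamma pathway, the ligand was near the limit of detection. Ifng had 1 count in each of DIO replicates 4 and 5 and 0 in the other 6 libraries, and was not tested. The receptor genes Ifngr1 (-0.13, adjusted p = 0.591) and Ifngr2 (0.15, adjusted p = 0.581) were not called. Among 19 tested genes known to be induced by interferon gamma, 13 were lower and 0 higher, with a median of -0.995. Of all genes tested, 7.28% were lower and 7.89% higher. In that list, Cxcl10 (called lower), Gbp5, Gbp6 and Tgtp1 passed the count filter only through the DIO libraries. Such genes could hardly come out higher, so the counts of this list are only a description. The chemokine gene Cxcl9 (-1.71, adjusted p = 8.2e-16) and the GTPase genes Gbp2 (-1.57, adjusted p = 6.5e-15), Ifi47 (-1.05, adjusted p = 9.3e-10) and Igtp (-0.94, adjusted p = 3.8e-14) were lower, with log2 fold changes beyond those of the 10 class I and immunoproteasome genes. The GTPase gene Iigp1 was lower by less (-0.30, adjusted p = 0.00224). These differences between genes were not tested. Class II genes, which present peptides taken up from outside the cell, were lower for 6 of 8 tested, with a median of -1.24 and H2-Ab1 at -1.24 (adjusted p = 3.8e-20).

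Marker levels of some cell types that carry class I were lower in the DIO + DHA libraries, and those of others were not. The summed level of 20 T and NK cell markers was 157 to 176 CPM in the DIO group and 59.0 to 68.5 CPM in the DIO + DHA group (9 of 16 tested lower, 0 higher), and Cd8a, the co-receptor that binds class I, had a log2 fold change of -2.09 (adjusted p = 0.000207). In a list of 13 class I receptors, 3 of the 4 tested were lower. They were Cd8a again, its partner Cd8b1 (-1.93, adjusted p = 0.00165) and Pirb, a receptor of B and myeloid cells (-0.78, adjusted p = 0.0132). Cd8a and Cd8b1, both also T and NK cell markers, passed the count filter only through the DIO libraries. So did, among others, the T and NK cell markers Gzmb and Gzmk (both called lower) and Cd247, and the receptor gene Klrk1. In the DIO + DHA libraries Cd8a and Cd8b1 had 1 to 7 and 1 to 6 counts. Genes of that kind could hardly come out higher, so the counts of lower genes in these lists are only a description. The call of Cd8b1 was lost without DIO replicate 5 (adjusted p = 0.133), and that of Pirb without DIO replicate 4 (0.161) or DIO + DHA replicate 1 (0.0650). The 14 Kupffer cell and macrophage markers summed to 878 to 979 CPM and 507 to 541 CPM (10 lower, 1 higher), the 5 leukocyte markers to 103 to 118 CPM and 65.3 to 76.3 CPM (3 of 4 lower), and the 9 sinusoidal endothelial markers to 234 to 266 CPM and 176 to 199 CPM (3 lower). The B and plasma cell list had 0 of 5 called (196 to 222 CPM and 189 to 222 CPM), dendritic cells 1 of 3 lower (8.29 to 11.7 CPM and 4.28 to 9.37 CPM), stellate cells 1 of 9 lower and 1 higher (Des, which is also on the skeletal muscle list, with a log2 fold change of 3.53), cholangiocytes 1 of 5 higher, and hepatocytes 1 of 9 lower and 1 higher. The lower dendritic cell gene, Itgax, had 24 counts over the DIO libraries and 9 over the DIO + DHA libraries. It too passed the count filter only through the DIO libraries and could hardly come out higher. No defining T cell or macrophage marker was at 0 in a whole group except Ncr1, an NK cell receptor gene picked out after its values were seen, in the DIO + DHA libraries. In bulk tissue, fewer cells of a type and less RNA per cell cannot be told apart, and the part of these markers in the lower class I and immunoproteasome levels was not tested.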

How the data were processed

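Groups and replicate numbers were taken per the labels, and diets and sex from the labels and the study's methods. The authors made 3′-enriched libraries by an adaptation of SCRB-seq, checked reads with FastQC 0.11.8, trimmed them with trimmomatic, aligned them with STAR 2.7.9a and counted them on exons of GENCODE M33 genes (GRCm39) with featureCounts 1.6.0. The deposited values are raw counts per gene. No strand or multi-mapping option was set, so reads of overlapping genes were left out. The sources used here do not say if reads were collapsed by unique molecular identifier.

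Names came from GENCODE M39, which held 56323 of the 56884 identifiers. The filter of the study's methods was used, which drops genes with counts under 5 in over 50% of the libraries in both groups. Counts were scaled by TMM and tested with edgeR 4.0.16 (quasi-likelihood, robust) in R 4.3.3, at a Benjamini-Hochberg adjusted p under 0.05. Ratios were tested by exact permutation with numpy 2.4.6. The script was tested on simulated data. Motifs were searched in the RefSeq promoter table. Alternatives were other scalings, filters, tests (limma 3.58.1, DESeq2 1.42.0), a replicate block and leaving out each library. Named genes were the 10 members, their counterparts, the interferon gamma axis and, from each list, genes of smallest p or largest mean CPM, of which the text gives a part and 1 is not reported here. Members and lists were chosen with earlier results of these data known, so list counts are descriptions.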

Additional observations from a re-analysis of the deposited data

Results flagged for a closer look

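B2m in DIO + DHA replicate 6 was at 1820 CPM, apart from the other 4 mice of its group, of which the nearest was at 1536 CPM. The gap was 0.731 of the whole range of the group, above the critical value of 0.71 of Dixon's test for 5 samples. It was 1 of 16 values examined, and chance alone picks out about 1 in 20 groups. Dixon's test was applied to the 5 mice of the DIO + DHA group only, since a group of 3 is not tested. Without this library the log2 fold change of B2m was -0.33.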

How the results depend on the processing

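No called result changed direction in any alternative, and over the 10 genes 9 stayed lower under 7 of the 10 alternatives that use all libraries. Under limma-voom with B above 0 the pathway lists held 17 lower and 2 higher genes in place of 27 and 13, and 5 of the 10 members were lower in place of 9. With at least 10 counts in every library the marker lists held 2 higher genes in place of 4, as fewer genes were tested. H2-D1, Psmb8, Psmb9, Psmb10 and Nlrc5 kept their calls in all 18 alternatives, and Tap2 was called in none (-0.51 to -0.02). H2-Q10, never called, ranged from -0.00405 to 0.0802 with 1 library left out and changed sign without DIO + DHA replicate 4. With 1 library left out the log2 difference of Psmb8 over Psmb5 ranged from -1.06 to -0.89, of Psmb9 over Psmb6 from -0.94 to -0.80 and of Psmb10 over Psmb7 from -2.53 to -1.23, and the last also missed an adjusted p under 0.05 without DIO + DHA replicates 1, 2, 4 or 5. The study names no pairing of mice by the shared numbers 1, 4 and 5. Same-numbered libraries had correlations of -0.01, but so few pairs cannot exclude a pairing. With the replicate block, 8 of the 10 genes were lower (Tap1 at an adjusted p of 0.0912), the calls of Erap1, Psmb1, Pomp and Irf1 were lost, 1538 genes were called in place of 1883, and the ratio differences were -0.995, -0.86 and -2.11. A count of 4 to 29 for Psmb7 and of 14 to 77 for Tap2 limits what could be seen for these genes.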
